A study of Mus musculus with 9 samples.

Results

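The 10 genes described here encode stand-alone pseudouridine synthases, the enzymes that turn uridine into pseudouridine in RNA without a guide RNA. They are Pus1, Pus3, Pus7, Pus7l, Pus10, Pusl1, Trub1, Trub2, Rpusd2 and Rpusd4, chosen by name out of 53380 rows in each table. Each of the 10 was found and had enough counts to be tested. The choice was made with earlier results of these data known. Rpusd1 and Rpusd3 are stand-alone enzymes as well but are not among the 10. Their RNA was measured in cultured mouse T-ALL cells, a T cell acute lymphoblastic leukemia that carries the human MYC gene under tetracycline control. Per the study's methods the cells came from tumors of EμSRα-tTA/tet-O-MYC mice on the FVB/N background, in which a lymphoid enhancer and promoter drive the tTA activator, so that adding doxycycline shuts the MYC transgene down. All 9 libraries share this transgene and a harvest at 48 hours. They form 3 groups of 3, namely MYC on (mock), MYC intermediate (doxycycline at 20 pg/mL) and MYC off (doxycycline at 500 pg/mL). The labels give no untransformed control and do not state if replicates are independent cultures, so p-values reflect just how far the libraries of a group lie apart.

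Pseudouridine is an isomer of uridine in which the base is attached through carbon, which lets it form an extra hydrogen bond and stiffens the RNA. Stand-alone synthases recognize the fold or sequence of their targets themselves, mostly in tRNA, mRNA and mitochondrial RNA, whereas the nucleolar enzyme dyskerin is led to rRNA by H/ACA guide RNAs. By sequence they form separate families, most of them named after bacterial enzymes. Pus1, Pus3 and Pusl1 are TruA-like, Pus7 and Pus7l TruD-like, Trub1 and Trub2 TruB-like, Rpusd2 and Rpusd4 RluA-like, and Pus10 stands alone.

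Totals ran from 18705516 to 39678799 counts per library, and the level of 3 counts was 0.0756 to 0.16 CPM (a gene's counts per 1000000 counts of its library), a limit that covers counting error only. Library labels were checked against the transgene, which had 1340, 1190.3 and 1249.9 CPM with MYC on, 428, 414 and 383 CPM at intermediate MYC and 4.08, 4.01 and 3.26 CPM with MYC off. Each group was thus set apart from the next. Of 12 T cell markers all were detected, and their summed level was 5297 to 5430 CPM with MYC on, then 11073 to 11536 CPM with MYC off. B cell, erythroid and NK markers summed to at most 0.348 CPM. Myeloid markers summed to 26.6 to 30.9 CPM with MYC on, and 40.6 to 43.6 CPM with MYC off. Of the 6 myeloid markers, Lyz2 and Adgre1 were at 0 in every library, Itgam had 3.44 to 4.67 CPM with MYC on, then 20.2 to 23.7 CPM with MYC off, and Csf1r had 23.1 to 26.2 CPM, then 18.3 to 20.3 CPM. Stromal and endothelial markers summed to 6.22 to 9.5 CPM over all libraries, with Pdgfrb at 6.22 to 9.5 CPM, with Col3a1, Cdh5 and Kdr at 0. The part of these shifts in the results was not tested.

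MYC, with its partner MAX, binds the E-box CACGTG, so the promoter windows of the synthase genes are shown first. All 10 genes had a window of 250 bases before and 50 bases after an annotated start in RefSeq (build GRCm38.p6, which has the coordinates of mm10). The motif reads the same on both strands. It was in 5 of the 10 genes, against 8.09% of all 27025 genes with such a window and 11.8% of the 9387 tested ones. The 30 bases around each are written 5′ to 3′ on the strand of the gene, with the motif in capitals.
Pus7: ggcgcagcgccgCACGTGtgcgagcccggc
Pus1: tccgccttcgtgCACGTGgtcagcttcggg
Pus3: tctcgcccctggCACGTGctgccacccccg
Pusl1: tcgaccgcgggcCACGTGcaagcgccccgc
Rpusd4, first: cgcgcaccgcccCACGTGacccgtaggcta
Rpusd4, second: aggctacctgccCACGTGatcagcagggcc
The windows lie at chr5:23783666-23783695 (Pus7, minus strand), chr5:110780576-110780605 (Pus1, minus strand), chr9:35558416-35558445 (Pus3, plus strand), chr4:155891718-155891747 (Pusl1, minus strand), chr9:35267784-35267813 and chr9:35267808-35267837 (Rpusd4, plus strand). The motif began 28, 22 and 27 bases after the start base in Pus7, Pus1 and Pusl1, counted in Pus1 from the upstream one of its annotated starts. It began 132 bases before the start in Pus3, and 85 and 61 bases before it in Rpusd4. Pus7 has a second annotated start, whose window (chr5:23779614-23779913) does not hold the motif. These letters are not in the windows of Pus7l, Trub1, Trub2, Rpusd2 and Pus10.

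Rpusd4 was the one member with a pair of motifs, and the 250 bases upstream of its start (chr9:35267631-35267880, plus strand) show both of them close together.
Rpusd4 upstream: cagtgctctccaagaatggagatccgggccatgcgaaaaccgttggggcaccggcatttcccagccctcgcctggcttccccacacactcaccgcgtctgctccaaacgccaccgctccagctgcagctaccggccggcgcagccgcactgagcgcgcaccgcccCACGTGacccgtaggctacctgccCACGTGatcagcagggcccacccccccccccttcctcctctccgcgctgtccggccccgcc

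Between MYC on and MYC off, 9 of the 10 synthase genes were higher in MYC on and Pusl1 was not called. None was lower (27.5% of all genes were), whether by the edgeR quasi-likelihood test (adjusted p under 0.01), by DESeq2 (0 genes) or at an unadjusted p under 0.05 (0 genes). Over all 14098 genes tested, 27.4% were called higher in the same comparison. Rpusd1 and Rpusd3, stand-alone enzymes outside the 10, were not called. The median log2 fold change of the 10 genes was 1.5, against −0.03 over all genes. Above a log2 fold change of 1 there were 6 members, against 11.4% of all genes. In bulk RNA, fewer cells of a type and less RNA per cell cannot be told apart. All differences are relative, in CPM to the total of a library and in fold changes to that total after TMM scaling.

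**Figure D1:**
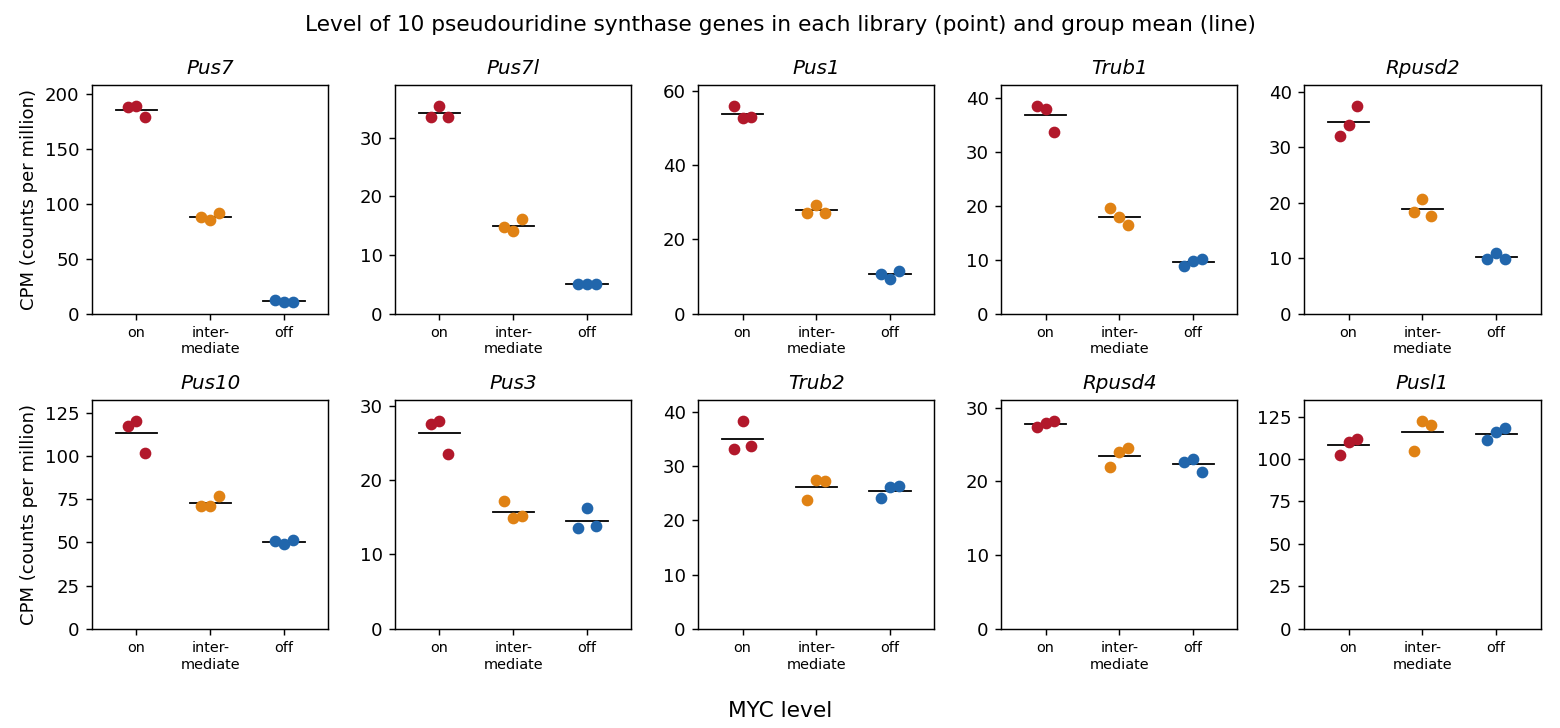
CPM of each of the 10 genes (vertical axis from 0, own scale per panel) in the 3 libraries of MYC on, MYC intermediate and MYC off, with a line at each group mean. Pus7 fell from 185 to 88.2 and 11.1 CPM, while the Pusl1 groups overlapped.

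Pus7, which modifies tRNA and mRNA at a short sequence motif, changed most. Its level was 188, 189 and 179 CPM with MYC on, 88.2, 85.4 and 91.1 CPM at intermediate MYC and 12.2, 10.5 and 10.5 CPM with MYC off. The 3 groups did not overlap. The log2 fold change between MYC on and MYC off was 4.09 ± 0.08 (SE, n = 3 per group, edgeR adjusted p = 4.77e-15), a 17.0-fold difference that ranked 37th of the 14098 genes. The gene, ENSMUSG00000057541.14, lies on the minus strand of mm10 chromosome 5 from 23740648 to 23783711.

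Pus7l, the paralog of Pus7 whose targets are less well known, followed in the same order of groups. It had 33.6, 35.5 and 33.5 CPM with MYC on, 14.7, 14.0 and 16.1 CPM at intermediate MYC and 5.09, 5.12 and 5.04 CPM with MYC off. The log2 fold change between the ends was 2.78 ± 0.09 (SE, adjusted p = 8.96e-13), again with no overlap between groups. The gene (ENSMUSG00000033356.3) is on chromosome 15, 94522688 to 94543547, minus strand.

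Pus1 modifies tRNA in the nucleus and the mitochondrion as well as mRNA, and its loss in humans causes a myopathy with sideroblastic anemia. Its level was 56.1, 52.7 and 53.1 CPM with MYC on, 27.1, 29.3 and 27.3 CPM at intermediate MYC and 10.7, 9.36 and 11.6 CPM with MYC off. All 3 groups were separate, and the log2 fold change from MYC on to MYC off was 2.38 ± 0.09 (SE, adjusted p = 3.68e-12). The gene (ENSMUSG00000029507.16, chromosome 5, 110773667 to 110780659, minus strand) shares 23.8% of its exon bases with Gm26515 and 6.33% with the antisense gene Gm15559. Both partners were also higher in MYC on, at most 15.8 CPM in any library, and the library kit does not mark strand.

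Pus3 and Pusl1, the other TruA-like genes, moved less. Pus3, which acts on the anticodon arm of tRNA, had 27.6, 28 and 23.5 CPM with MYC on, 17.3, 14.9 and 15.2 CPM at intermediate MYC and 13.5, 16.2 and 13.9 CPM with MYC off. MYC on stood above both other groups, which overlapped each other, and the log2 fold change between MYC on and MYC off was 0.89 ± 0.10 (SE, adjusted p = 1.49e-06). Of the exon bases of Pus3 (ENSMUSG00000032103.10, chromosome 9, 35558595 to 35567401, plus strand), 88.1% are shared with Hyls1 on the opposite strand, a ciliary gene. Hyls1 itself was higher in MYC on by 0.31 ± 0.09 (log2, SE, adjusted p = 0.006), and reads of the shared bases cannot be told apart without strand, so the value of Pus3 is uncertain.

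Pusl1, a mitochondrial member of the TruA-like group, had 102, 110.0 and 112 CPM with MYC on, 105, 122 and 119.9 CPM at intermediate MYC and 111, 116 and 118 CPM with MYC off. The groups overlapped. The log2 difference between MYC on and MYC off was −0.05 with a 95% interval from −0.19 to 0.08 (adjusted p = 0.468). Differences below −0.19 or above 0.08 lie outside the interval. The gene (ENSMUSG00000051557.15, chromosome 4, 155887879 to 155891781, minus strand) shares 29.9% of its exon bases with Ints11 on the other strand. Ints11, a subunit of the Integrator complex with a mean of 264 CPM in MYC on, was lower there than in MYC off (−0.25 ± 0.06, log2, SE, adjusted p = 0.00114). Reads of the shared bases cannot be told apart without strand, so the level and the difference of Pusl1 are uncertain as well.

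Trub1, which makes the pseudouridine of the T loop in tRNA, was higher in MYC on by 1.99 ± 0.10 (log2, SE, adjusted p = 6.67e-11). This rested on 38.5, 38.0 and 33.7 CPM with MYC on, 19.5, 17.8 and 16.4 CPM at intermediate MYC and 8.75, 9.65 and 10.0 CPM with MYC off. Its paralog Trub2, a mitochondrial enzyme, had 33.1, 38.3 and 33.7 CPM with MYC on, 23.8, 27.4 and 27.2 CPM at intermediate MYC and 24.1, 26.1 and 26.3 CPM with MYC off. Trub1 thus gave 3 separate groups, while for Trub2 only MYC on stood apart. The log2 fold change of Trub2 between the ends was 0.49 ± 0.08 (SE, adjusted p = 7.05e-05). Trub1 (ENSMUSG00000025086.12) is on the plus strand of chromosome 19, 57452912 to 57491005. Trub2 (ENSMUSG00000039826.13) is on the minus strand of chromosome 2, 29761224 to 29788502, and shares 14.6% of its exon bases with Coq4. Coq4, a gene of coenzyme Q synthesis, was higher in MYC on by 1.26 ± 0.09 (log2, SE, adjusted p = 1.03e-08). It averaged 26.1, 14.8 and 11.2 CPM in MYC on, MYC intermediate and MYC off. Reads of the shared bases cannot be told apart without strand, so the value of Trub2 is uncertain as well.

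Of the RluA-like pair, Rpusd2 had 32.0, 33.9 and 37.4 CPM with MYC on, 18.4, 20.7 and 17.5 CPM at intermediate MYC and 9.90, 10.9 and 9.75 CPM with MYC off. It was higher in MYC on than in MYC off by 1.80 ± 0.10 (log2, SE, adjusted p = 2.17e-10), with 3 separate groups. Rpusd4, which modifies the large rRNA of the mitochondrial ribosome, had 27.4, 27.9 and 28.2 CPM with MYC on, 22, 23.9 and 24.5 CPM at intermediate MYC and 22.6, 23.0 and 21.3 CPM with MYC off. MYC on was above both other groups, and the log2 fold change from MYC on to MYC off was 0.35 ± 0.08 (SE, adjusted p = 0.000938), the smallest of the 9 called. Rpusd2 (ENSMUSG00000027324.1) lies on chromosome 2, 119034790 to 119039769, and Rpusd4 (ENSMUSG00000032044.4) on chromosome 9, 35267865 to 35277731, both on the plus strand.

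Pus10, which acts on the T loop of some tRNAs and takes part in microRNA processing, had 118, 120.2 and 102 CPM with MYC on, 71.1, 71.1 and 76.5 CPM at intermediate MYC and 50.5, 49.2 and 51.2 CPM with MYC off. The groups did not overlap. Its log2 fold change between MYC on and MYC off was 1.20 ± 0.07 (SE, adjusted p = 4.72e-10). The gene (ENSMUSG00000020280.12) spans 23665674 to 23732876 on the plus strand of chromosome 11.

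In counts of separate groups, the 3 MYC on libraries lay above the 3 MYC off libraries for 9 of 10 genes, against 32.8% of all genes tested. The exact two-sided permutation test of log2 CPM gave p = 0.1 for each of these 9 genes, the smallest that 3 libraries against 3 allow.

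The titration split this change into an upper step, from MYC on to MYC intermediate, and a lower step, from MYC intermediate to MYC off. These comparisons share the MYC intermediate libraries. In the upper step 8 of 10 genes were higher in MYC on (17.2% of all genes tested), all but Pusl1 and Rpusd4. In the lower step 6 of 10 were higher in MYC intermediate (14.7% of all genes), namely Pus7, Pus7l, Pus1, Trub1, Rpusd2 and Pus10. No member was lower in the upper step (17.4% of all genes) or the lower step (9.95%) by edgeR, by DESeq2 (0 genes) or at an unadjusted p under 0.05 (0 genes). The medians of the 10 genes were 0.79 and 0.76 on the log2 scale, against −0.01 and −0.01 over all genes. A log2 fold change above 1 was seen for 3 members in the upper step (3.79% of all genes) and for 3 in the lower (3.68%). The libraries did not overlap for 9 members in the upper step (27.6% of all genes) and for 6 in the lower (21.0%).

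**Figure D2:**
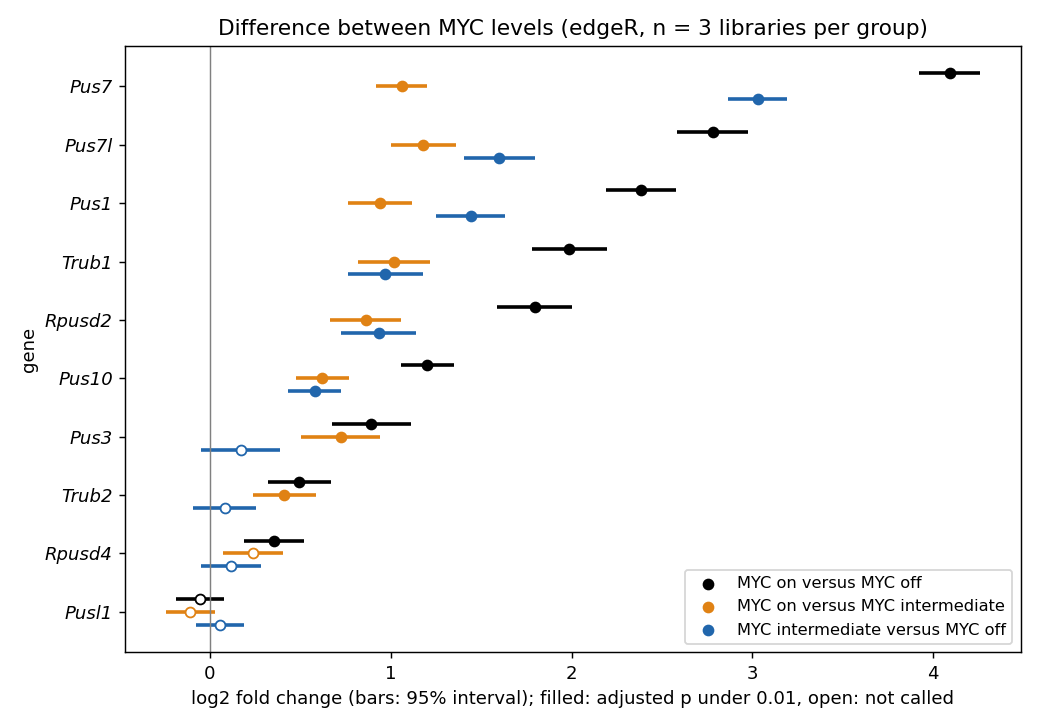
Log2 fold changes (horizontal axis) of the 10 genes with 95% intervals for MYC on versus MYC off (black), MYC on versus MYC intermediate (orange) and MYC intermediate versus MYC off (blue), filled where called. The lower step of Pus7 (3.03) was the largest single step, and the lower-step intervals of Pus3, Trub2, Rpusd4 and Pusl1 spanned 0.

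In the upper step Pus7l (1.18 ± 0.08), Pus7 (1.06 ± 0.07), Trub1 (1.02 ± 0.09), Pus1 (0.94 ± 0.08), Rpusd2 (0.86 ± 0.09), Pus3 (0.72 ± 0.10) and Pus10 (0.62 ± 0.07) lost between 0.62 and 1.18 on the log2 scale (SE, n = 3 per group, edgeR). Trub2 followed with 0.41 ± 0.08 (adjusted p = 0.000705), and Rpusd4 with 0.24 ± 0.08 was not called (adjusted p = 0.0215).

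The lower step was 3.03 ± 0.08 for Pus7 (adjusted p = 3.73e-13), 1.60 ± 0.09 for Pus7l and 1.44 ± 0.09 for Pus1, and 0.97 ± 0.10, 0.93 ± 0.10 and 0.58 ± 0.07 for Trub1, Rpusd2 and Pus10 (log2, SE). For Pus3 the difference was 0.17 with a 95% interval from −0.05 to 0.39, for Rpusd4 0.12 (−0.05 to 0.28), for Trub2 0.08 (−0.09 to 0.26) and for Pusl1 0.05 (−0.08 to 0.19).

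Whether MYC intermediate lay off the midpoint of the ends was tested as its own contrast, in which the average log2 level of both ends was taken from that of the middle group. Pus7 alone was called, 0.98 ± 0.06 above the midpoint (SE, adjusted p = 8.55e-08), where 1.7% of all genes were called above it. In the other direction 0 genes were called by edgeR and by DESeq2, against 0.184% of all genes, and 2 members were below the midpoint at an unadjusted p under 0.05. These were Pus3 (−0.28 ± 0.09, adjusted p = 0.0895) and Trub2 (−0.16 ± 0.07, adjusted p = 0.202). For Pus1 (0.25 ± 0.07, adjusted p = 0.0619) and Pus7l (0.21 ± 0.08, adjusted p = 0.123) the departure was not called. By the same contrast the transgene itself lay 2.59 ± 0.07 above its midpoint (log2, SE). MYC intermediate was thus not the log2 midpoint of the transgene level.

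The steps were also put on the linear scale. Of the gap between the MYC on and MYC off levels, MYC intermediate kept 44.7% for Pus7, 40.8% for Pus1, 38.1% for Pus10, 36.8% for Rpusd2, 34.6% for Pus7l and 32.3% for Trub1, computed from the fitted fold changes. For the other genes called between the ends it kept 30.4% (Rpusd4), 14.6% (Pus3) and 14.3% (Trub2). The transgene kept 32.4% by the same measure. These shares are descriptions without a test.

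Compared per unit of length, as the TPM (levels corrected for gene length and scaled to a fixed library sum) that the authors deposited, the order of the genes changed with the MYC level. In MYC on, Pusl1 had the highest level of the 10, 156 ± 8.06 TPM (SD, n = 3), followed by Pus10 (88.1 ± 7.93), Pus1 (83.3 ± 2.5), Pus7 (75.3 ± 2.40) and Rpusd2 (42.9 ± 3.46). Rpusd4 (35.4 ± 0.619), Pus7l (35.0 ± 1.37), Pus3 (29.9 ± 2.87), Trub1 (19.3 ± 1.41) and Trub2 (18.7 ± 1.64) came below. The place of Pus3 is uncertain in each group, as 88.1% of its exon bases are shared with Hyls1. The ranges of Pus10 and Pus1, of Rpusd4 and Pus7l, and of Trub1 and Trub2 overlapped, and the other neighbors were separate. The place of Pusl1 is uncertain at every MYC level, as 29.9% of its exon bases are shared with Ints11. That of Trub2 is uncertain as well (14.6% shared with Coq4).

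In MYC off, Pusl1 was still first with 165 ± 7.54 TPM, and Pus7 had moved from 4th to 10th place with 4.47 ± 0.329 TPM. Its range overlapped that of Trub1 (4.97 ± 0.419), which overlapped that of Pus7l (5.17 ± 0.0684). Above them stood Rpusd2 (12.6 ± 0.818) and Trub2 (13.5 ± 0.829), whose ranges overlapped, as did those of Pus1 (16.2 ± 1.78) and Pus3 (16.4 ± 1.73). Rpusd4 (28.2 ± 0.934) and Pus10 (38.9 ± 1.04) were 3rd and 2nd. In MYC intermediate Pusl1 (165 ± 16.1 TPM), Pus10 (55.9 ± 3.50), Pus1 (42.4 ± 2.02) and Pus7 (35.3 ± 1.67) led in the order of MYC on, and Trub1 was last (9.29 ± 0.608).

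**Figure D3:**
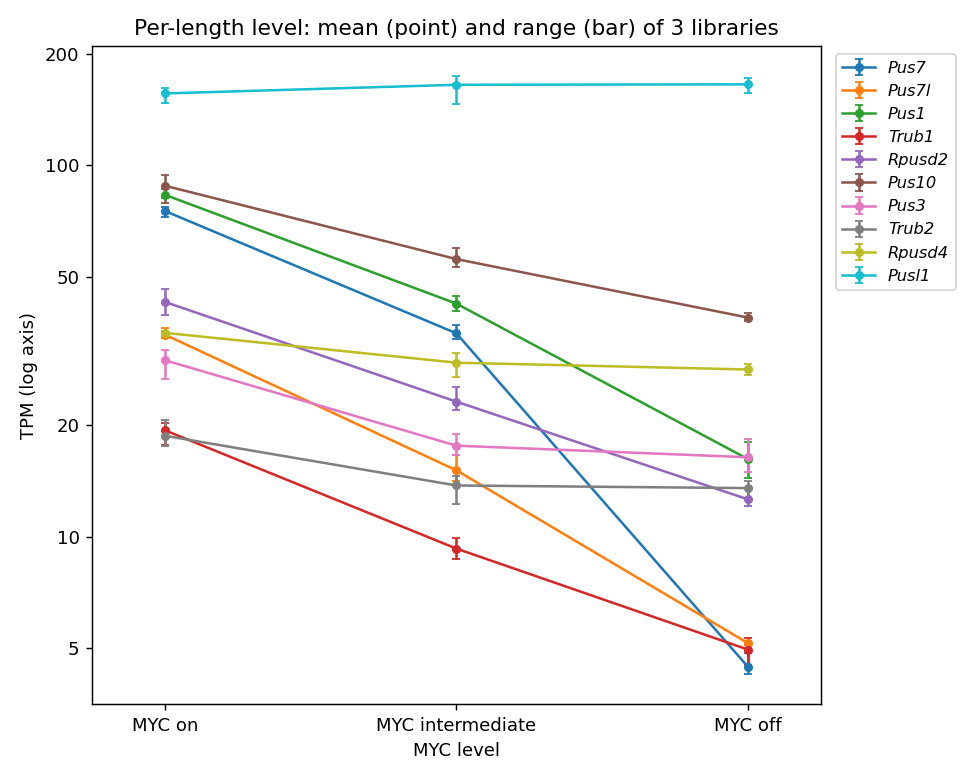
Per-length level in TPM (vertical log axis) of the 10 genes in the 3 MYC levels, with points at the mean and bars over the range of 3 libraries. Pusl1 stayed near 156 to 165 TPM, and Pus7 crossed most other genes on its way from 75.3 to 4.47 TPM.

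Summed over the 10 genes, the level was 584 ± 14.8 TPM in MYC on, 407 ± 24.1 TPM in MYC intermediate and 306 ± 10.6 TPM in MYC off (SD, n = 3). Pus7 made up 12.9% ± 0.245 of this sum in MYC on, 8.69% ± 0.47 at the intermediate level, and 1.47% ± 0.16 in MYC off.

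Paralogs were then set against each other within each library, as a ratio of TPM, for 6 pairs. Pus7 over Pus7l was 2.22, 2.12 and 2.13 with MYC on, 2.38, 2.42 and 2.24 at the intermediate level, then 0.951, 0.814 and 0.829 with MYC off. Per unit of length, Pus7 thus went from above its paralog to below it only at the lowest MYC level. In counts it stayed above Pus7l in MYC off, with 484, 283 and 332 against 202, 138 and 159. The crossing therefore depends on the counted lengths, 8289 bases for Pus7 and 3291 for Pus7l. Trub1 over Trub2 was 1.15, 0.978 and 0.987 with MYC on, 0.81, 0.642 and 0.597 at the intermediate level, then 0.358, 0.366 and 0.377 with MYC off. Rpusd2 over Rpusd4 had means of 1.21 ± 0.0812, 0.788 ± 0.0772 and 0.447 ± 0.018 (SD, n = 3), and Pus1 over Pusl1 of 0.535 ± 0.0449, 0.258 ± 0.017 and 0.098 ± 0.0101. For all 6 pairs, which include Pus3 against Pus1 and Pusl1, the MYC on and MYC off libraries did not overlap. Ratios with Pus1, Pus3, Pusl1 or Trub2 carry the uncertainty of their shared exon bases. The pairs among Pus1, Pus3 and Pusl1 share genes, so the 6 pairs are not separate observations. Each exact two-sided permutation test on the log2 ratio gave p = 0.1, the smallest possible, and 0.1 when adjusted over the 6 pairs.

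Genes with the motif CACGTG in the promoter window were found at both ends of the range. The log2 fold changes between MYC on and MYC off were −0.05 to 4.09 for the 5 genes with it (Pusl1, Rpusd4, Pus3, Pus1 and Pus7) and 0.49 to 2.78 for the 5 without it (Trub2, Pus10, Rpusd2, Trub1 and Pus7l). A match of letters is no measurement of binding.

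The profile of Pus7 over the 9 libraries was most like those of Gsto1, a glutathione transferase (Pearson's r = 0.999 of log2 CPM), Lap3, a leucine aminopeptidase (0.999), and Shmt1, an enzyme of folate metabolism (0.999), out of 8529 protein-coding genes compared. Such values were not rare, since 56 genes had an r above 0.99, and the 9 libraries fall into 3 groups that alone give high values. Lap3 went from 144 to 65.4 and 8.22 CPM over the 3 MYC levels.

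The remaining genes of pseudouridylation were the H/ACA proteins and a further pair of RluA-like genes. Dkc1, which encodes the dyskerin synthase of the H/ACA particle, had 416, 220.0 and 68.4 CPM on average in MYC on, MYC intermediate and MYC off (log2 fold change between the ends 2.64 ± 0.06 SE, adjusted p = 2.24e-14). The other core proteins Nhp2 (2.56 ± 0.10), Gar1 (2.37 ± 0.18) and Nop10 (1.74 ± 0.12) and the assembly factors Naf1 (2.23 ± 0.20) and Shq1 (1.49 ± 0.07) were likewise higher in MYC on. The RluA-like genes Rpusd1 and Rpusd3, which are stand-alone enzymes as well, averaged 26.3 and 10.6 CPM with MYC on, and 27.1 and 11.7 CPM with MYC off. Neither was called, with log2 differences of −0.01 (95% interval −0.20 to 0.19) and −0.11 (−0.34 to 0.12). In all, 6 of these 8 genes were higher in MYC on and 0 were lower by edgeR (0 at an unadjusted p under 0.05, 0 by DESeq2), with a median of 1.99 against −0.03 over all genes.

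In mitochondria, Trub2, Rpusd3 and Rpusd4 work in a module with Ngrn, Rcc1l and Fastkd2 that matures the large mitochondrial rRNA. Rcc1l (1.61 ± 0.07) and Fastkd2 (1.5 ± 0.07) were higher in MYC on (log2, SE), and Ngrn averaged 35.9 CPM with MYC on, then 38.5 CPM with MYC off (−0.07 ± 0.08, adjusted p = 0.471).

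Further RNA modification lists were counted in the same comparison. Of 27 tRNA methylation genes 19 were higher, 0 lower by edgeR (0 by DESeq2, 1 at an unadjusted p under 0.05) and 8 not called (median 0.67), with the m7G methyltransferase gene Mettl1 (3.99 ± 0.13 SE), Tarbp1 (3.12 ± 0.15), Trmt61a (2.86 ± 0.12) and the cytosine methyltransferase gene Nsun2 (2.75 ± 0.05) in front. Among 29 other tRNA modification genes, 24 were higher (median 0.59) and 1 was lower, the dihydrouridine synthase gene Dus2 (−0.24 ± 0.07, edgeR adjusted p = 0.00866), which DESeq2 did not call (0 lower). The cytidine acetyltransferase gene Nat10 (3.39 ± 0.08), Qtrt1, which inserts queuine (2.73 ± 0.12), Thg1l (2.00 ± 0.19) and Dus4l (1.92 ± 0.13) led this list.

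Of 14 rRNA modification genes 13 were higher and 0 lower (0 by DESeq2, 0 at an unadjusted p under 0.05, median 0.96), with Nat10 again, Nop2 (2.74 ± 0.06), fibrillarin, Fbl (2.54 ± 0.08), and Nop58 (1.78 ± 0.08). Of 18 mitochondrial RNA modification genes 9 were higher and 0 lower (0 by DESeq2, 1 at an unadjusted p under 0.05, median 0.38), led by the ribose methyltransferase genes Mrm1 (1.66 ± 0.09) and Mrm3 (1.25 ± 0.13), Trit1 (0.95 ± 0.09) and Trmt61b (0.82 ± 0.11). All these counts stand beside the 27.4% of all genes that were higher and the 27.5% that were lower, and no test of the lists was made.

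**Figure D4:**
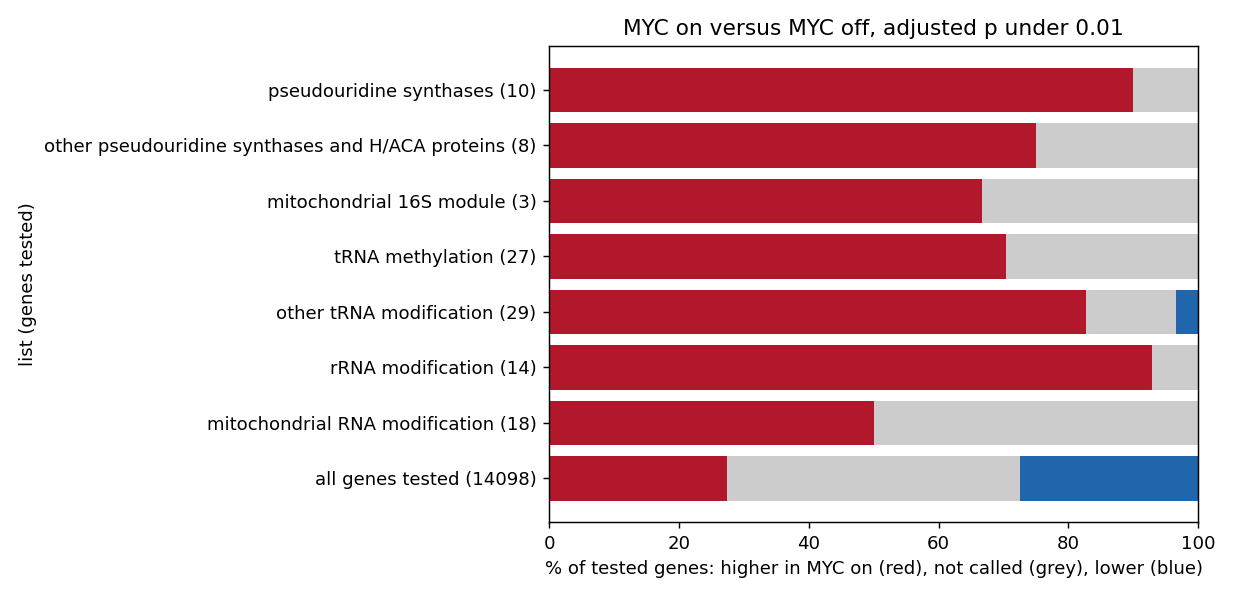
Share of tested genes (horizontal axis, percent) called higher in MYC on (red), not called (grey) or lower (blue) against MYC off, for the 10 synthases, the related lists and all 14098 genes, with the number tested in brackets. The synthases stood at 9 of 10 higher, mitochondrial RNA modification at 9 of 18.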

How the data were processed

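Polyadenylated RNA of 9 libraries was reverse transcribed from an oligo(dT) primer with a kit that does not mark strand. Reads were trimmed, aligned and counted with cutadapt 1.16, STAR 2.5.4b and featureCounts on mm10, according to the submitters' processing notes. The annotation release and the strand and multi-mapping settings are not given in the sources used here. The authors deposited 1 table per library with raw counts per gene. The deposited score column is counts per kilobase, the deposited FPKM and TPM are that score scaled by a library total, and a deposited fraction gives each gene's rank. Counts were tested, TPM served for levels between genes, and the other columns only for checks. Identifiers without their version were matched to GENCODE M21 for symbols and positions. Where genes share exons on opposite strands, such reads may be dropped or split.

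All 9 libraries entered 1 edgeR 4.0.16 quasi-likelihood fit in R 4.3.3 with TMM scaling, the default count filter (14098 genes kept) and group as the term. Tests were two-sided, adjusted by Benjamini-Hochberg over all genes and called under 0.01. SE is the fold change over the root of F. Self-tests used simulated data. DESeq2 1.42.0, other scalings, filters, thinned counts, subsets, a replicate block and each library left out were the alternatives. Same-numbered MYC on and MYC off libraries deviated together (r = 0.43, 0.30 and 0.27 over 8835 genes). Same-numbered libraries of the other pairs of groups did not throughout. In another order, MYC intermediate replicates 1, 3 and 2 deviated with MYC off replicates 1, 2 and 3 (r = 0.39, 0.29 and 0.28). Against MYC on replicates 1, 2 and 3 they gave r = 0.15, 0.19 and 0.45. A block by replicate number thus matches only MYC on and MYC off. The members and lists were chosen with earlier results of these data known. Named genes were the 10 members, the transgene, all genes of the H/ACA and mitochondrial module lists, up to 4 called genes with the largest change and at least 5 CPM per other list, and the 3 profiles most like the most changed member in each direction, of at least 10 CPM (none was lower). Dus2 and the genes overlapping members were named after their values were seen. Tp53rk found no row and Adat3 had too few counts.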

Additional observations from a re-analysis of the deposited data

How the results depend on the processing

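The counts of synthase genes called (9 higher between MYC on and MYC off, 8 in the upper step, 6 in the lower step, 1 above the midpoint, and 0 lower in each) came out the same under all 17 alternatives, 16 for the midpoint, which cannot be set with 6 libraries. With each of the 9 libraries left out in turn they were 9 to 9, 8 to 8, 6 to 6 and 1 to 1. No single gene gained or lost a call. Over all alternatives the log2 fold change between MYC on and MYC off ran from 4.04 to 4.19 for Pus7 and from 0.30 to 0.38 for Rpusd4, the closest to the threshold (adjusted p up to 0.00841, edgeR or DESeq2). A sign changed in 3 cases, all of uncalled distances from the midpoint close to 0. With single libraries left out, Rpusd2 ran from −0.040 (without MYC intermediate replicate 2) to 0.092, Trub1 from −0.099 to 0.041 (without MYC intermediate replicate 3) and Pus10 from −0.053 to 0.0017 (without MYC off replicate 1). A replicate block by number uses the pairing of MYC on and MYC off, but not the order in which MYC intermediate matched them. With this block 9 genes were again higher and no call changed. Scaling by library size alone moved the share of higher calls among all genes in the lower step from 59.6% to 50.7% and left the 6 synthase calls. Over all genes, the number above the midpoint was 240, and 695 with no count filter, 384 by DESeq2 and 113 without MYC intermediate replicate 2, while that below it was 26, and 155, 100 and 9 under the same settings. Genes lower in the lower step numbered 1403, and 852 without MYC off replicate 2. Each synthase had 138 counts or more in each library. With counts thinned to the smallest total no call changed, but the adjusted p of Rpusd4 (edgeR) went from 0.000938 to 0.00841 between MYC on and MYC off and from 0.0215 to 0.107 in the upper step, so its precision depends on depth. Polyadenylated RNA levels say nothing of enzyme amount or of pseudouridine itself.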

Other observations

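Of the 9387 tested genes with a RefSeq promoter window, 11.8% held CACGTG. The share was 16% of 2769 genes higher in MYC on than in MYC off, 9.97% of 2779 lower genes and 10.2% of 3839 genes not called. These shares are a description with no test, and the base composition of the windows was not measured.

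Gm15559, an antisense gene that shares 138 exon bases with Pus1 on the other strand, had 14.7, 6.69 and 3.03 CPM on average in MYC on, MYC intermediate and MYC off. Its log2 fold change between the ends was 2.31 ± 0.14 (SE, edgeR adjusted p = 1.22e-09), beside 2.38 for Pus1. Whether its reads come from its own transcript or from Pus1 cannot be told apart without strand.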
